A study of Mus musculus with 6 samples.

Results

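A group of 10 genes of the endoplasmic reticulum (ER) stress and amino acid response was followed in mammary tumors of mice fed the liver X receptor (LXR) ligand DMHCA and in control tumors. The genes were taken by symbol and are Hspa5, Xbp1, Atf4, Ddit3, Atf3, Herpud1, Trib3, Chac1, Asns and Sesn2. These 10 symbols matched 11 of the 55385 gene entries in the deposited tables, because Ddit3 has 2 entries, and 10 of the 11 passed the filter on low counts. The mice were female MMTV-NeuT/ATTAC mice, which carry a constitutively active rat ErbB2 transgene under the MMTV promoter and a caspase-8 fusion protein under the FABP4 promoter, which the drug AP20187 switches on by bringing its copies together, so that fat cells die and the gland becomes fibrotic. The study's methods describe AP20187 at 0.4 mg/kg, 3 times per week from 6 weeks of age, and a diet with 0.05% DMHCA (about 100 mg/kg) from 8 weeks of age. The control libraries are labelled AP20187 Vehicle, and the labels alone do not settle whether those mice received AP20187 in its vehicle or the vehicle alone. The study's text describes the sequenced tumors as from NeuT/ATTAC+AP mice, its name for mice given AP20187. Its caption on imaged tumors also has both control and DMHCA mice receiving the drug. The samples are labelled as fibrosis of the mammary gland and are called tumors in the study's text. Age at collection is not given in the sources used here. The MMTV promoter acts mainly in mammary epithelium and the FABP4 promoter mainly in fat cells, and both transgenes are present in both groups.

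RNA of whole tissue from 3 control and 3 DMHCA mice gave 6 libraries, with 46358654 to 63420620 expected counts per control library and 52330938 to 55539411 per DMHCA library. DMHCA libraries 1 and 3 were nearly the same. Their biological coefficient of variation was 0.033, against 0.37 to 0.57 for the other pairs within a group, and 18.2% of 13380 genes differed between them by a chi-square test, against 82.0% to 87.0% for the other pairs. Their counts were summed and counted as 1 sample, called DMHCA 1+3, so that 3 control samples were compared with 2 DMHCA samples.

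Unfolded proteins in the ER activate the sensors PERK, IRE1 and ATF6. PERK phosphorylates the translation factor eIF2alpha, which favors translation of the transcription factor ATF4, and the kinase GCN2 does the same when amino acids are short, while IRE1 splices the Xbp1 transcript and ATF6 is released by cleavage to raise chaperone genes. Secretory cells such as mammary epithelium and plasma cells use these pathways to make large amounts of secreted protein.

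The members spanned a wide range of levels. On the TPM scale, which is per transcript length and allows genes to be compared, Hspa5 had a mean of 1019 over the 5 samples and ranked 155 among the 19427 genes tested. Xbp1 followed at 584.7 TPM, Atf4 at 155.8 and Herpud1 at 69.3. Ddit3 averaged 46.2 TPM, Trib3 38.2, Asns 33.5 and Atf3 14.8, and the least abundant members were Sesn2 at 3.86 and Chac1 at 2.29 TPM. Hspa5 lay above Xbp1, and Xbp1 above Atf4, in each of the 5 samples, whereas the sample values of Herpud1, Ddit3, Trib3 and Asns ran into one another, so their order is not set beyond the spread. Atf3 likewise lay above Asns and Trib3 in control 3 (27.0 against 23.0 and 19.4 TPM), and Chac1 above Sesn2 in control 2 (3.10 against 1.80 TPM). In the same way, Ddit3 had more TPM than Herpud1 in control 2 (80.7 against 61.8) and less in control 1 (35.05 against 61.91).

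No member passed edgeR's quasi-likelihood test of DMHCA against control tumors. None of the 10 members had an adjusted p under 0.05, and this was so for 0 of all 19427 genes tested (0.0%), so the count says little about these genes in particular. At an unadjusted p below 0.05 there were likewise 0 members, beside 3.53% of all genes higher and 4.08% lower with DMHCA. DESeq2 on the 5 samples called 0 members and 265 genes (1.48%), and on the 6 libraries 0 members and 920 genes (5.37%). The mean was higher with DMHCA for 6 members and lower for 4, and 48.0% of all genes tested had a positive log2 fold change. The median log2 fold change was 0.03 over the members and -0.03 over all genes tested. The standard error of the members had a median of 0.39 on the log2 scale, and differences of that size were not detectable with these samples. In whole tissue, fewer cells of a type and less RNA per cell cannot be told apart. The p-values rest on the spread between mice within 2 small groups.

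**Figure D1:**
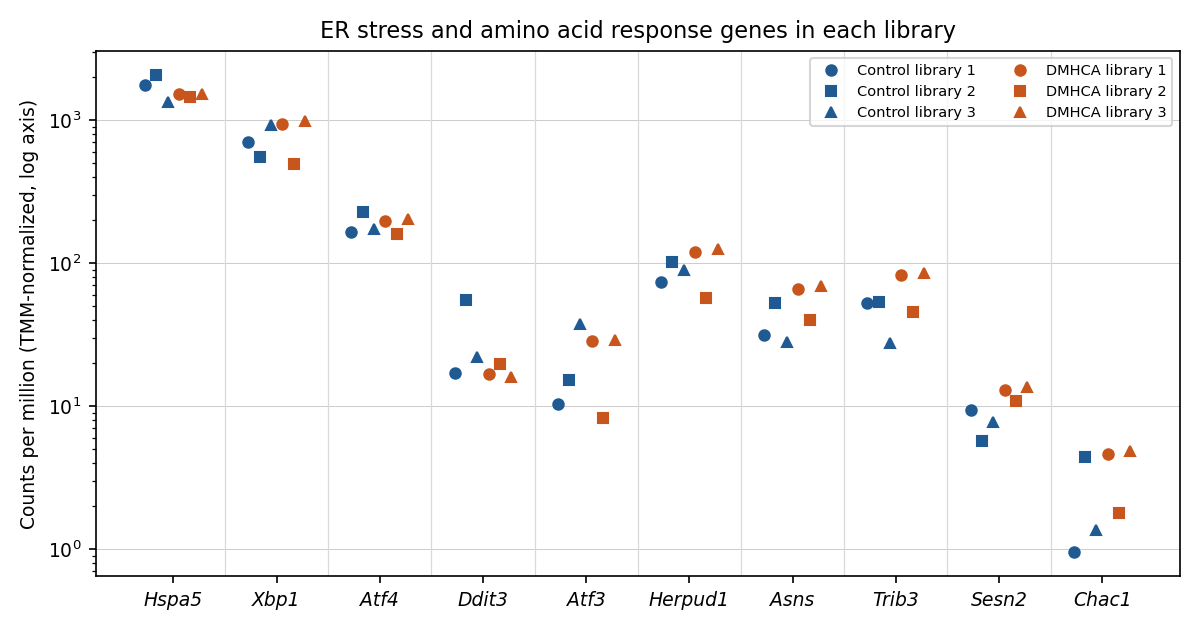
Normalized counts per 1000000 counts (CPM) of the 10 members on a log axis, TMM-normalized over the 6 libraries, with 1 point per library (blue, control; orange, DMHCA; circles, squares and triangles, libraries 1, 2 and 3). DMHCA libraries 1 and 3 nearly coincide, at 66.0 and 68.7 for Asns, while library 2 is at 40.2, and control library 2 stands alone for Ddit3 at 55.1.

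Hspa5 encodes BiP, the main Hsp70 chaperone of the ER lumen and the usual readout of ER stress (ENSMUSG00000026864, GRCm38 chr2:34771970-34777547, plus strand). Its normalized counts per 1000000 counts (CPM) were 1774, 2071 and 1338 in controls 1, 2 and 3, and 1528 in DMHCA 1+3 and 1469.9 in DMHCA 2. Both DMHCA samples lay inside the control range, and the controls themselves differed by up to 1.55-fold. The means were 1728 ± 369 (SD, n = 3) and 1499 ± 41.4 (SD, n = 2), a log2 fold change of -0.20 (SE 0.36) and the edgeR test gave an adjusted p = 0.878. Without control 2 the log2 fold change was -0.055, and without control 3 it was -0.36, and it was -0.14 without DMHCA 2. In TPM the order of the means was the other way, 1005 ± 187 in controls and 1039 ± 50.5 with DMHCA, again with overlapping groups.

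Among the transcription factors, Xbp1 encodes the factor made active when IRE1 splices its transcript (ENSMUSG00000020484, chr11:5520659-5525893, plus strand). Its CPM values were 704.4, 545.5 and 928.1 in controls 1, 2 and 3, and 968.3 in DMHCA 1+3 and 504.6 in DMHCA 2. The DMHCA samples held both the highest and the lowest value of the 5, with the controls between them. The groups differed by a log2 fold change of 0.02 (SE 0.42; adjusted p = 0.989 by edgeR). This value was -0.15 without control 2, 0.23 without control 3 and 0.46 without DMHCA 2, and -0.01 without control 1 or without DMHCA library 3. The gene tables do not separate spliced from unspliced Xbp1, so IRE1 activity was not measured.

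Atf4, the factor whose translation eIF2alpha phosphorylation favors (ENSMUSG00000042406, chr15:80255184-80257541, plus strand), varied least. It had 166 CPM in control 1, 225 in control 2, 173 in control 3, 201 in DMHCA 1+3 and 163 in DMHCA 2. The groups overlapped, and the ratio of the highest to the lowest sample was 1.39. Its log2 fold change was -0.05 (SE 0.28; adjusted p = 0.964 by edgeR), and it was 0.10 without control 2, 0.13 without DMHCA 2, -0.14 without control 1, -0.11 without control 3 and -0.08 without DMHCA library 3. ATF4 is set largely at translation, and these files measure RNA only.

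Ddit3 encodes CHOP, a factor linked to cell death in prolonged ER stress (ENSMUSG00000025408, chr10:127290774-127296288, plus strand). It reached 54.7 CPM in control 2, beside 17.0 in control 1, 21.8 in control 3, 16.3 in DMHCA 1+3 and 20.0 in DMHCA 2. Control 2 alone was high, and the other controls lay in the range of the DMHCA samples or just above it. The log2 fold change of -0.78 (SE 0.54; adjusted p = 0.704 by edgeR) became -0.10 without control 2, so this library decided its size. Exons of Mars, the methionyl-tRNA synthetase gene on the opposite strand, cover 68 of the 1713 exon bases of Ddit3, and the use of strand in counting is not given in the sources used here. Mars had 46.9, 57.6 and 39.4 CPM in controls 1, 2 and 3, and 63.9 and 62.6 in DMHCA 1+3 and DMHCA 2. The part of Mars reads in the Ddit3 counts was not tested. The second Ddit3 entry (ENSMUSG00000116429) is a short transcript of 105 bases that lies wholly within exons of the first. It held 3 counts in control 2, 1 in DMHCA library 3 and 0 in the other 4 libraries, and did not pass the filter on low counts. Without that filter its log2 fold change was -1.36 (SE 2.15; adjusted p = 0.840 by edgeR). Its effective length of 2.2 bases turned the 3 counts into 24.8 TPM, a value that should not be read as expression.

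Atf3, a stress-induced factor of the same bZIP class (ENSMUSG00000026628, chr1:191170296-191218039, minus strand), had 10.4, 15.0 and 37.6 CPM in controls 1, 2 and 3. It had 28.8 CPM in DMHCA 1+3 and 8.39 in DMHCA 2. Control 3 and DMHCA 1+3 were high and the other samples low, so that each group held both high and low samples. The log2 fold change was -0.17 (SE 0.71; adjusted p = 0.954 by edgeR), and it was 0.55 without control 3, 0.50 without DMHCA 2, -0.51 without control 1 and -0.37 without control 2.

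The other 5 members are target genes of these factors. Sesn2, which encodes an inhibitor of mTORC1 that senses leucine (ENSMUSG00000028893, chr4:132492032-132510501, minus strand), had 9.42, 5.69 and 7.64 CPM in controls 1, 2 and 3, and 13.3 in DMHCA 1+3 and 11.0 in DMHCA 2. Both DMHCA samples were above all controls. The means were 7.59 ± 1.87 (SD, n = 3) and 12.1 ± 1.57 (SD, n = 2), a 1.601-fold difference (log2 fold change 0.68, SE 0.39) with an adjusted p = 0.666 by edgeR. Sesn2 was the 1 member of 10 whose groups did not overlap, beside 13.8% of all genes tested that were higher without overlap. There were 0 members lower without overlap, beside 12.2% of all genes. With so many genes in this class, 1 of 10 is near the background. Counting the 6 libraries as separate samples moved the unadjusted p of Sesn2 under 0.05. Its adjusted p was then 0.308 in edgeR and 0.166 in DESeq2, and over the 14 alternatives it ran from 0.166 to 0.959.

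Asns encodes asparagine synthetase, a classic target of ATF4 in amino acid shortage (ENSMUSG00000029752, chr6:7675169-7693254, minus strand). It had 31.7, 52.1 and 28.1 CPM in controls 1, 2 and 3, and 67.4 in DMHCA 1+3 and 40.9 in DMHCA 2. DMHCA 1+3 was above every control, and DMHCA 2 was below control 2 and above the others. The means of 37.3 ± 12.9 (SD, n = 3) and 54.2 ± 18.8 (SD, n = 2) gave a log2 fold change of 0.54 (SE 0.37; adjusted p = 0.702 by edgeR). Without control 2 the log2 fold change was 0.86, the groups did not overlap (as for 20.5% of all genes, higher) and the unadjusted p moved under 0.05. The adjusted p of Asns was then 0.524 by edgeR, and it ran from 0.362 to 0.959 over the 14 alternatives. Without DMHCA 2 the log2 fold change was 0.89.

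Trib3, a pseudokinase induced by ATF4 and CHOP that feeds back on them (ENSMUSG00000032715, chr2:152337422-152344032, minus strand), had 52.3, 53.1 and 27.6 CPM in controls 1, 2 and 3. It had 83.8 CPM in DMHCA 1+3 and 46.4 in DMHCA 2. Only DMHCA 1+3 stood above the controls, and DMHCA 2 lay between controls 3 and 1. Its log2 fold change was 0.56 (SE 0.40; adjusted p = 0.709 by edgeR), and it was 0.30 without control 3 and 0.96 without DMHCA 2.

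Chac1, which encodes a glutathione-degrading enzyme and is induced through ATF4 (ENSMUSG00000027313, chr2:119351229-119354381, plus strand), was low throughout, with 53 to 254 expected counts per library. It had 0.948 CPM in control 1, 4.34 in control 2, 1.35 in control 3, 4.71 in DMHCA 1+3 and 1.81 in DMHCA 2. Control 2 and DMHCA 1+3 were high, and the other 3 samples low. The log2 fold change was 0.56 (SE 0.81; adjusted p = 0.842 by edgeR), and it was 1.51 without control 2, 1.13 without DMHCA 2, 0.21 without control 1 and 0.30 without control 3.

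Herpud1 encodes an ER membrane protein that takes part in ER-associated degradation (ENSMUSG00000031770, chr8:94386438-94395377, plus strand). It had 73.9, 101 and 89.4 CPM in controls 1, 2 and 3, and 123 in DMHCA 1+3 and 57.8 in DMHCA 2. As for Xbp1, the DMHCA samples held the highest and the lowest value and the controls lay between them. Its log2 fold change was 0.04 (SE 0.37; adjusted p = 0.982 by edgeR). It was -0.08 without control 1, 0.15 without control 2, 0.52 without DMHCA 2 and -0.01 without DMHCA library 3.

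The 2 DMHCA samples differed from each other for most members. In normalized counts DMHCA 1+3 was above DMHCA 2 for 9 of the 10 members, Ddit3 being the exception, beside 50.8% of all genes tested. The ratio of DMHCA 1+3 to DMHCA 2 was 3.43 for Atf3, 2.61 for Chac1, 2.13 for Herpud1, 1.92 for Xbp1, 1.80 for Trib3 and 1.65 for Asns, and nearer 1 for Atf4 (1.23), Sesn2 (1.20) and Hspa5 (1.04). DMHCA 1+3 was the highest of the 5 samples for 6 members (beside 19.5% of all genes) and DMHCA 2 the lowest for 4 (beside 23.2%), also in normalized counts. In TPM, Hspa5 was lower in DMHCA 1+3 (1003) than in DMHCA 2 (1074). Xbp1 was then lowest in control 2, and Atf4 was lowest in control 3 and highest in DMHCA 1+3. Without DMHCA 2, the median log2 fold change of the members was 0.51 in place of 0.03, and 6 members were higher without overlap (beside 26.8% of all genes) and 1 lower (beside 25.0%). These counts come from a single DMHCA sample, which is assumed to vary like the others. These values describe 2 samples, and the difference between them was not tested.

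The scale changed which groups overlapped. In TPM, Atf4 had 150.5, 151.6 and 144.6 in controls 1, 2 and 3, and 175.8 in DMHCA 1+3 and 156.5 in DMHCA 2. Asns had 25.2, 31.5 and 23.0 TPM in controls, and 53.2 and 34.8 with DMHCA. On this scale both genes, with Sesn2, were higher in every DMHCA sample than in every control, which makes 3 of 10 members beside 20.3% of all genes, and 0 members were lower without overlap beside 6.97%. TPM was not tested, and it moved the whole distribution, since the median difference in log2(TPM + 1) over all genes tested was 0.11 higher with DMHCA, against -0.03 in normalized counts.

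The wider pathways were described with 9 lists of 81 genes, of which 79 were tested. At an unadjusted p under 0.05, 1 gene was higher (1.27%, beside 3.53% of all genes) and 1 lower (1.27%, beside 4.08%), 0 passed at an adjusted p under 0.05, and the median log2 fold change was 0.18. Of the 79 genes, 14 were higher (17.7%, beside 13.8% of all genes) and 7 lower (8.86%, beside 12.2%) without overlap. The mean was higher with DMHCA for 50 of the 79. Among all genes tested 48.0% had a positive log2 fold change, the share to set beside the counts of direction in each list.

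Of the 7 ER stress sensors and their processing enzymes, 6 had a higher mean with DMHCA and 0 separated the groups. Eif2ak3, which encodes PERK, had 55.9, 49.9 and 35.8 CPM in controls 1, 2 and 3, and 67.6 and 53.9 in DMHCA 1+3 and DMHCA 2, a log2 fold change of 0.37 (SE 0.28). The log2 fold change of Ern1, which encodes IRE1, was 0.35 (SE 0.39). It was 0.17 for Atf6 and for its relative Atf6b, and 0.29 and -0.16 for Mbtps1 and Mbtps2, whose proteases cleave ATF6. Ern2, a gut form of IRE1, was barely detected, with a mean level of 0.099 TPM and a log2 fold change of 0.76 (SE 0.98). The adjusted p of these 7 genes by edgeR ran from 0.727 to 0.887.

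The 3 other eIF2alpha kinases were each higher in both DMHCA samples than in all controls, as were 13.8% of all genes tested. Eif2ak4, which encodes GCN2, had 30.9, 26.2 and 21.9 CPM in controls 1, 2 and 3, and 35.1 in DMHCA 1+3 and 38.5 in DMHCA 2. Eif2ak2, which encodes the RNA-dependent kinase PKR, had 85.5, 42.6 and 80.3 CPM in controls, and 109 and 102 with DMHCA. The heme-regulated kinase gene Eif2ak1 had 42.33, 42.46 and 35.01 CPM in controls, and 42.9 and 55.8 with DMHCA. Their log2 fold changes were 0.48, 0.60 and 0.30, and none passed at an adjusted p under 0.05 or an unadjusted one. Both regulatory subunits of the eIF2alpha phosphatase, Ppp1r15a (log2 fold change 0.20) and Ppp1r15b (0.51), also were higher without overlap (beside the same 13.8%), and neither passed.

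ER chaperones and folding enzymes, the list nearest to Hspa5, had a lower mean with DMHCA in 14 of 16 genes, with a median log2 fold change of -0.19. Of these, 6 were lower without overlap (beside 12.2% of all genes) and 0 passed at an unadjusted p under 0.05. The sums of the list overlapped between the groups. They were 6991, 9017 and 5929 CPM in controls 1, 2 and 3, and 5928 and 6687 in DMHCA 1+3 and DMHCA 2, with control 2 the highest. In TPM they were 4598, 4461 and 3749 in controls, and 3791 and 4365 with DMHCA. Pdia6, a disulfide isomerase gene, had 556, 718 and 452 CPM in controls 1, 2 and 3, and 304 and 433 in DMHCA 1+3 and DMHCA 2. Manf, a secreted ER stress protein gene, and Ero1lb, an oxidase gene, were also lower without overlap, with log2 fold changes of -0.69 (SE 0.40) and -0.37 (SE 0.26). The most abundant gene was Hsp90b1, the ER form of Hsp90, with a log2 fold change of -0.48 (SE 0.40). Ero1l, the other oxidase gene of this list, had one of the 2 positive values, 0.88 (SE 0.60). ER-associated degradation genes, the list nearest to Herpud1, ran the other way in 10 of 12 genes, with a median of 0.21, 2 of them higher without overlap (beside 13.8% of all genes) and 0 passing at an unadjusted p under 0.05. In that list Derl3 had 28.4 CPM in DMHCA 1+3 and 11.3 in DMHCA 2, beside 11.8 to 14.0 in controls, and so was high in the same sample as Herpud1. The 2 genes without overlap were Edem2 and Edem1, with log2 fold changes of 0.37 and 0.18. Edem3, at 0.46, had overlapping groups, and Vcp, the most abundant gene of the list, was at 0.21 (SE 0.31). The sums of this list overlapped too, with 1909, 1658 and 1372 CPM in controls 1, 2 and 3, and 1887 and 1998 with DMHCA.

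Amino acid synthesis genes were split, with 5 of 10 higher. Pycr1, a proline synthesis gene, had 67.6 CPM in DMHCA 1+3 and 10.2 in DMHCA 2, beside 14.9, 13.1 and 9.27 in controls 1, 2 and 3. It was high in DMHCA 1+3 alone, with a log2 fold change of 1.64 (SE 0.71; adjusted p = 0.644 by edgeR). Aldh18a1, which acts before it in proline synthesis, had 73.8 CPM in DMHCA 1+3 and 29.7 in DMHCA 2, beside 32.8 to 48.6 in controls. Mthfd2 and Shmt2, of mitochondrial folate metabolism, had log2 fold changes of -0.56 (SE 0.53) and 0.26 (SE 0.33). The most abundant gene of the list was Phgdh, which starts serine synthesis, with a log2 fold change of 0.42 (SE 0.56). Of 8 amino acid transporter genes tested, 3 were higher and 5 lower, and Slc1a4 was lower without overlap (beside 12.2% of all genes) and at an unadjusted p under 0.05 (beside 4.08%), with 18.8, 19.3 and 50.1 CPM in controls and 13.0 and 6.26 with DMHCA (log2 fold change -1.61, SE 0.59; adjusted p = 0.644 by edgeR). Slc38a2 (0.54) and Slc7a1 (0.60) were higher without overlap (beside 13.8%), and Slc3a2, the most abundant, had a log2 fold change of -0.48 (SE 0.38).

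Cytosolic tRNA synthetase genes, which ATF4 also raises, were higher in 11 of 12, with a median log2 fold change of 0.30. Of these, 4 did not overlap (Cars, Lars, Yars and Mars), beside 13.8% of all genes, and 0 passed at an unadjusted p under 0.05. The most abundant, Sars, had a log2 fold change of 0.29 (SE 0.32). Of 9 other ATF4 and CHOP pathway genes tested, 8 had a higher mean with DMHCA, with a median of 0.56. Cebpb, a dimer partner of these factors, was the gene of this list at an unadjusted p under 0.05 (beside 3.53% of all genes) and without overlap (beside 13.8%), with 358, 387 and 324 CPM in controls 1, 2 and 3, and 543 and 793 in DMHCA 1+3 and DMHCA 2 (log2 fold change 0.91, SE 0.31; adjusted p = 0.644 by edgeR). Bbc3 had a log2 fold change of 0.77, Vldlr of 0.57 and Atf5 of 0.56, all with overlapping groups. For 7 of these 9 genes DMHCA 1+3 was above DMHCA 2 (beside 50.8% of all genes), Cebpb and Vldlr being the exceptions. Atf5 had 98.2 CPM in DMHCA 1+3 and 35.5 in DMHCA 2, beside a control mean of 45.3. Nupr1, Ddit4, Cebpg and Gdf15 likewise had a higher mean with DMHCA while DMHCA 2 lay below the control mean. The log2 fold change of Nupr1 was 0.02. Cytosolic heat shock genes, a separate response to unfolded proteins, had a median log2 fold change of -0.02 with 4 of 8 higher. Hspe1 (-0.60) and Hsp90aa1 (-0.47) were lower without overlap (beside 12.2% of all genes), and Hspa1a and Hspa8, the most abundant, were at 0.16 and -0.30.

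**Figure D2:**
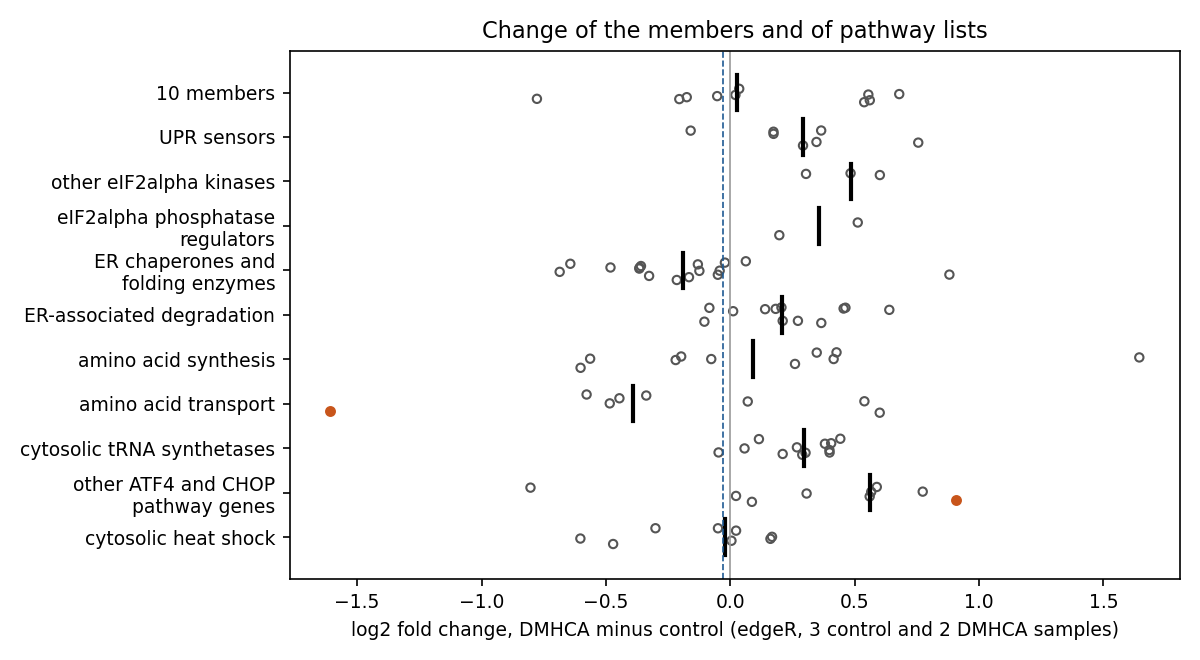
Log2 fold change (DMHCA minus control, edgeR, 3 control and 2 DMHCA samples) of each gene tested, by list, with filled orange points at an unadjusted p under 0.05 and black bars at the list's median. The dashed line is the median of all 19427 genes, -0.03; the 10 members are centered at 0.03, and the 2 filled points are Slc1a4 and Cebpb.

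Markers of several cell types differed between samples. B and plasma cell markers summed to 184 TPM in control 1, 8.58 in control 2 and 1239 in control 3, and to 15.8 in DMHCA 1+3 and 17.4 in DMHCA 2. All 8 of the 9 that were tested had a lower mean with DMHCA at an unadjusted p under 0.05 (beside 4.08% of all genes). Of these, 0 were lower without overlap (beside 12.2%). The most abundant was Igkc, and none was at 0 in every library. Plasma cells depend on Xbp1, and Xbp1 was highest among the controls in control 3 and lowest in control 2, as these markers were, while DMHCA 1+3 had the highest Xbp1 of all with these markers near their low end. Adipocyte markers summed to 296, 133 and 1218 TPM in controls 1, 2 and 3, and to 71.2 and 77.8 in DMHCA 1+3 and DMHCA 2. Of these markers, 6 of 6 were lower without overlap (beside 12.2% of all genes) and 6 at an unadjusted p under 0.05 (beside 4.08%), with Fabp4 the most abundant. T cell markers (most abundant Cd3g) followed the same order in controls, with 24.3, 3.32 and 234 TPM, and had 9.84 and 5.68 with DMHCA, with 7 of 7 lower and 2 at an unadjusted p under 0.05 (beside the same 4.08%). Of these 7, 1 was lower without overlap (beside the same 12.2%).

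Milk protein genes (most abundant Csn3), which mark secretory epithelium, summed to 24138 TPM in control 1, 16839 in control 2 and 55528 in control 3, and to 27741 in DMHCA 1+3 and 12205 in DMHCA 2, with 5 of 6 lower. DMHCA 2 had the lowest sum, to which Csn3 contributed most, and this was so in normalized counts too (6692 CPM). In normalized counts it was also lowest for Xbp1, Herpud1, Atf3 and Atf4. In TPM, Herpud1 and Atf3 were lowest there, but Xbp1 was lower in control 2 (341.4 against 465.6) and Atf4 was above every control. Gene by gene DMHCA 2 was not always lowest for milk protein genes, since Lalba was at 13.5 CPM in control 2 and 14.6 in DMHCA 2, and Csn1s2a at 9.66 and 10.0. Skeletal muscle markers (most abundant Tnnt3) were likewise lowest in DMHCA 2, with 246.6 TPM, beside 877.8 in DMHCA 1+3 and 561.6, 1021 and 699.4 in controls 1, 2 and 3, and 5 of 5 had a lower mean with DMHCA. Fibroblast markers (most abundant Col3a1) had 784, 331 and 1299.6 TPM in controls 1, 2 and 3, and 650.1 and 675 with DMHCA, with 6 of 7 lower. Of these, 1 was lower without overlap (beside 12.2% of all genes). It was Fap, with 8.10, 8.58 and 19.6 CPM in controls 1, 2 and 3, and 5.37 and 7.41 in DMHCA 1+3 and DMHCA 2.

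Epithelial markers (most abundant Krt18) summed to 4261, 3813 and 3495 TPM in controls 1, 2 and 3, and to 5117 in DMHCA 1+3 and 4926 in DMHCA 2, with 4 of 7 genes higher. In normalized counts the sums of the groups overlapped, with 5560 CPM in control 2 and 5017 in DMHCA 2, and Krt8 was the gene of this list higher without overlap (beside 13.8% of all genes). Krt19 went the other way, with 36.3, 5.94 and 387 CPM in controls 1, 2 and 3, and 16.5 and 1.18 in DMHCA 1+3 and DMHCA 2 (log2 fold change -4.01, SE 1.95). Macrophage markers (most abundant C1qa) ranged from 511 to 727 TPM and endothelial markers (most abundant Pecam1) from 42.7 to 64.3, and on this scale both sums overlapped between the groups. In normalized counts the macrophage sums overlapped too, but the endothelial ones did not, with 113.8, 117.0 and 133.6 CPM in controls 1, 2 and 3, and 134.4 and 141.0 in DMHCA 1+3 and DMHCA 2. Of the 7 macrophage genes 2 had a higher mean with DMHCA and 5 a lower one, and C1qa was the 1 lower without overlap, beside 12.2% of all genes (log2 fold change -0.46, SE 0.30). Of the 5 endothelial genes 2 had a higher mean and 3 a lower one, with a median log2 fold change of -0.09. Among them 1, Cdh5, was higher without overlap (beside 13.8%) and at an unadjusted p under 0.05 (beside 3.53%, log2 fold change 0.81, SE 0.25). No marker list had a gene at 0 in all 6 libraries. The part of these cell types in the levels of the members was not tested. LXR target genes, which the receptor of the drug is known to raise, were higher in 5 of 5, with 4 of them without overlap (beside 13.8% of all genes) and 3 at an unadjusted p under 0.05 (beside 3.53%), and Srebf1, the most abundant, had 549, 318 and 470.2 CPM in controls 1, 2 and 3, and 2131 and 1449.9 in DMHCA 1+3 and DMHCA 2. The log2 fold changes of Abca1, Mylip and Lpcat3 were 1.36, 0.86 and 0.69.

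Promoters were read to show the elements through which ER stress and ATF4 are known to act on these genes. RefSeq promoter windows (GRCm38.p6, 250 bases before to 50 after the gene's start) matched all 10 member symbols, and each motif was searched on both strands in these and in all 32851 windows. The ER stress element (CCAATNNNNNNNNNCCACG) was found in 1 of 10 members, Hspa5, and in 0.119% of all windows. The C/EBP-ATF element (TGATGNAAN) was found in 5 members, Asns, Atf3, Chac1, Herpud1 and Trib3, and in 3.95% of all windows. The cyclic AMP element TGACGTCA (1.79% of windows) and the XBP1 element TGACGTGG (0.676%) were found in 0 members. A second form of the ER stress element (ATTGGNCCACG), added after the sequences were seen, was found in Herpud1 and in 0.0365% of all windows. A match of letters is a description of the window and does not show binding. The elements were searched as ones known to act on these genes, so their matches are no test of enrichment. The shares of all windows give only how often the letters occur.

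The matches are shown in capitals in 30 bases of sequence, 5′ to 3′ on the strand of the gene. The Hspa5 stretch (chr2:34772020-34772049, plus strand) carries the ER stress element, 65 bases before the RefSeq start and within an exon of a longer Hspa5 transcript in GENCODE. The Asns stretch (chr6:7693213-7693242, minus strand) also lies in an exon of a longer transcript, the Atf3 stretch (chr1:191183425-191183454, minus strand) in an intron of Atf3, and the Trib3 stretch (chr2:152344028-152344057, minus strand) reaches the first exon of Trib3 in GENCODE. The Trib3 match itself lies before that exon, and 13 to 21 bases after the start in RefSeq, where it belongs to the transcript.
Hspa5: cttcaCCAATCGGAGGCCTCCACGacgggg
Asns: cccagccacaTGATGAAACttcccgcacgc
Atf3: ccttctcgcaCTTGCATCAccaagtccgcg
Trib3: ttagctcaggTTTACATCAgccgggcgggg

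Longer stretches are given for Herpud1, which holds a match to both kinds of element, and for Chac1, which had the widest ratio of the highest to the lowest sample among the members, 4.97. They run up to the RefSeq start of Herpud1 (chr8:94386179-94386428, plus strand, in an intron of the overlapping gene Gm15890) and up to the first annotated exon of Chac1 (chr2:119350992-119351228, plus strand, between genes). Capitals mark the C/EBP-ATF element in both, and, as the later of 2 runs of capitals in Herpud1, the second form of the ER stress element.
Herpud1: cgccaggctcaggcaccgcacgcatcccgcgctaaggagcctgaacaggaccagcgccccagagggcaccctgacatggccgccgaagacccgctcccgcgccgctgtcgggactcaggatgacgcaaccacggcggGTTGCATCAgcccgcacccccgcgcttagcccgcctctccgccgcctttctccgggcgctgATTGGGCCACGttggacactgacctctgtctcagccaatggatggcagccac
Chac1: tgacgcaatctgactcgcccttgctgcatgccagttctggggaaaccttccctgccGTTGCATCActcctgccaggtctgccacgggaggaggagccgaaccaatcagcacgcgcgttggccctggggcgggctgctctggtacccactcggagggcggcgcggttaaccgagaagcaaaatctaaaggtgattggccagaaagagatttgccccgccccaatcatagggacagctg

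Of the 5 members with a C/EBP-ATF match, Asns, Chac1, Trib3 and Herpud1 were highest in DMHCA 1+3 (beside 19.5% of all genes) and Atf3 was second highest there. Sesn2 and Xbp1, in which none of the searched elements was found, were also highest in DMHCA 1+3. The part of these elements in the levels of the members was not tested.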

How the data were processed

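RNA of 6 libraries, 3 control and 3 DMHCA, was compared. The authors trimmed paired-end reads with cutadapt 2.9 and deposited expected counts from RSEM 1.3.1 with Bowtie2 2.4.1 (mm10, GRCm38), which divide reads between similar genes. The authors also deposited TPM, scaled to a fixed sum per library, which was used for levels, with a pseudocount of 1 on the log2 scale. Their FPKM values were not used. Expected counts were rounded to whole numbers.

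DMHCA libraries 1 and 3 were summed by a rule with 2 alternative conditions, for genes averaging 100 counts or more. The pair did not meet the first, under 10% of genes differing by a chi-square test, and met the second, a biological coefficient of variation under 0.1 and more than 5 times below other pairs. edgeR 4.0.16 in R 4.3.3 was used with TMM, filterByExpr (minimum count 10, minimum total 15), the quasi-likelihood F-test and Benjamini-Hochberg adjustment over 19427 genes, and was tested on simulated data. Normalized counts (CPM) are per 1000000 counts of the effective library size. The standard error was taken as the size of the log2 change over the root of the F statistic. Groups that do not overlap are those in which every DMHCA sample lies above, or below, every control. Alternatives were DESeq2 1.42.0, other filters, robust dispersions, 6 separate libraries with and without a block, and each library left out.

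The members and lists were chosen with earlier results of these data known. The genes named are all members, all sensors and kinases, at most 4 genes with the smallest p and the most abundant gene of each pathway list, and the most abundant gene of each marker list, and 1 gene that this takes is not reported here. Lalba, Csn1s2a, Krt8, Krt19, Cdh5, Fap, Nupr1, Ddit4, Cebpg, Gdf15 and Edem1 were named after their values were seen, as were genes that overlap Ddit3 or a promoter. The Mars gene is Mars1 in newer annotation. Coordinates are from GENCODE mouse release 21, which holds 99.6% of the 55385 entries. Tables and plots were made with Python 3.11.15, pandas 2.3.3, numpy 2.4.6 and matplotlib 3.10.9.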

Additional observations from a re-analysis of the deposited data

How the results depend on the processing

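No member passed an adjusted p under 0.05 in any of the 14 alternatives with a test, and of 150 alternative log2 fold changes of members 133 kept their direction. The number of genes with an adjusted p under 0.05 was 0 with all edgeR settings but one, 16 without a filter on low counts, 265 with DESeq2 on 5 samples and 920 with DESeq2 on 6 libraries. With each library left out it was 0. Asns, Chac1, Ddit3, Sesn2 and Trib3 kept their direction throughout. Atf3 turned to 0.0458 in edgeR on 6 libraries, 0.043 with the replicate block, 0.047 in DESeq2 on 6 libraries and 0.0883 in log2(TPM + 1), and ranged from -0.51 to 0.55 with each library left out. At a filter of 1 CPM in 2 samples Xbp1 was at -0.0313 and Herpud1 at -0.0048. In log2(TPM + 1) Hspa5 was at 0.0631 and Atf4 at 0.155. With each library left out, Xbp1 ranged from -0.15 to 0.46, Herpud1 from -0.0778 to 0.52, Atf4 from -0.14 to 0.13, Hspa5 from -0.36 to -0.055 and Trib3 from 0.30 to 0.96. The cause was not tested. Counts limit Chac1 most, with 53 in control 1.

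Members with an unadjusted p under 0.05 numbered 1 (Sesn2) in edgeR on 6 libraries, 1 with the replicate block and 1 in DESeq2 on 6 libraries, and 0 to 1 (Asns, without control 2) with each library left out. The members' median ranged from -0.0437 to 0.51 with each library left out. Members higher without overlap numbered 3 on TPM, an alternative chosen after seeing the data, and 1 to 6 with each library left out (beside 13.1% to 26.8% of all genes), and those lower 0 to 1 (beside 12.6% to 25.0%).

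Same-numbered libraries are not known to be paired. The correlations of their deviations were -0.05, 0.32 and 0.33, and control 1 deviated most like DMHCA 2 (0.08), not like its own number. Control 3 had 0.32 with DMHCA library 1 as well, which is nearly the same as library 3. The positive values for numbers 2 and 3 are therefore not separate signs of pairing. With the replicate block, 3207 genes had an unadjusted p under 0.05, against 2912 without it, the members' median was 0.12, and no call changed.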
